A study of Mus musculus with 3 samples.

Results

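The transcripts described here encode proteins of the spliceosome, the machine that cuts introns out of precursor RNA, and proteins that steer it. They were taken by gene symbol: the Snrp genes (proteins of the small nuclear ribonucleoprotein particles, snRNPs), the numbered Srsf genes (serine- and arginine-rich splicing factors), the Hnrnp genes (heterogeneous nuclear ribonucleoproteins) and the Sf3a and Sf3b genes (splicing factor 3, of the U2 snRNP). This rule found 51 RefSeq transcripts of 24 genes among 16383 transcripts in all: 10 transcripts of 6 Snrp genes, 15 of 7 Srsf genes, 25 of 10 Hnrnp genes and 1 of Sf3a2. Values are RPKM, read numbers scaled by the length of the transcript and the depth of the library. All 51 symbols came from a RefSeq gene table of GRCm38.p6. The table of values runs from NM_001001144 to NM_015816, so it covers the families in part. RefSeq has 53 genes with curated mRNAs that meet the rule (12 Snrp, 11 Srsf, 21 Hnrnp and 9 Sf3), and the 29 of them without a listed transcript were not analysed here. Each of these 29 has an mRNA with an identifier past the end of that range. Family counts and sums below are over the listed transcripts alone.

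Whole lungs of mice on a C57BL/6J and mixed background were sequenced. The 2 double-knockout libraries (DKO 1 and DKO 2) carried a knockout of both Lin28a and Lin28b, which encode RNA-binding proteins that block maturation of let-7 microRNAs. The loxP-flanked exon of each gene was recombined after tamoxifen by a Cre made from Nkx2-1, a gene active in the lung epithelium, so the deletion was aimed at epithelial cells while all lung cells were sequenced. There was 1 wild-type library (WT). The labels do not say whether it carried the Cre or received tamoxifen, and they give no age or sex. They also do not tie the DKO libraries to different mice, and p-values measure the spread between these libraries, which may be technical. With 1 WT library, the test below rests on 2 DKO libraries for its estimate of spread.

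In the spliceosome, Sm proteins, among them those encoded by Snrpb, Snrpd1 and Snrpe, form a ring on small nuclear RNAs, and Snrpc belongs to the U1 snRNP that recognizes the start of an intron. SR proteins bind exons and mostly favour their inclusion, whereas hnRNP proteins often favour skipping. Many SR and hnRNP genes splice their own transcripts in alternative ways. Such splicing factors are made by nearly all cells, and a level in whole lung sums over every cell type.

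Facts of the libraries that touch these values are as follows. The estimated depth was about 30700000 reads for DKO 1, 34200000 for DKO 2 and 48700000 for WT. Lin28b, a targeted gene, had 0.187 RPKM in DKO 1, 0.590 in DKO 2 and 0.449 in WT, so the library labelled DKO 2 was not below WT, and a whole-transcript value checks a 1-exon deletion in 1 cell type weakly. Of 5 lung epithelial markers, 4 were above 0 and Nkx2-1 was listed at 0. Their sum was 15.5 RPKM in DKO 1, 11.2 in DKO 2 and 388 in WT, where most of it was Sftpc. Of 5 erythroid markers, 3 were above 0, with a sum of 3435 RPKM in DKO 1, 11368 in DKO 2 and 1837 in WT, while Alas2 and Hba-a1 were at 0. All 5 liver markers were above 0, with a sum of 11.4 RPKM in DKO 1, 183 in DKO 2 and 7.55 in WT. All 5 myeloid markers were above 0, with sums of 354, 201 and 31.6 RPKM in the same order. Of 4 heart muscle markers, 2 were above 0 (sums of 2.23, 25.7 and 2.01 RPKM), and Myh6 and Tnnt2 were at 0. The 4 markers of cycling cells in the table had a sum of 260 RPKM in DKO 1, 246 in DKO 2 and 262 in WT. The 4 Y-linked genes examined were above 0 in both DKO libraries and listed at 0 in WT, so sex and genotype cannot be told apart. DKO 2 thus stood apart by its erythroid, liver and heart transcripts, while the myeloid sum was highest in DKO 1. The part of these transcripts in the results below was not tested. Fewer cells of a type and less RNA per cell cannot be told apart in whole tissue.

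Of the 51 transcripts, 36 (70.6%) were listed at 0 in all 3 libraries, against 68% of the whole table. The zeros fell on genes that RefSeq annotates with several transcripts. All 8 transcripts of genes with 1 RefSeq transcript were above 0, namely Snrpb, Snrpc, Snrpd1, Snrpe, Srsf2, Hnrnpul2, Sf3a2 and Hnrnpa1l2-ps2. Of the 43 transcripts of the 16 genes with 2 or more, 7 (16.3%) were above 0 in any library. The same split was not made over the whole table, so it is not read as a trait of these genes. For 9 genes every listed transcript was at 0. These were Srsf3, Srsf7 and Srsf10 among the SR genes, Snrpa and Snrpn among the snRNP genes, and Hnrnpc, Hnrnpd, Hnrnpm and Hnrnpr among the hnRNP genes. Several of them serve nearly every cell, so their zeros can be failed estimates and are not read as absence.

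The exons of each transcript were then compared with those of all other RefSeq-matched transcripts of the GENCODE annotation. Among the 43 transcripts, 15 had no exonic base of their own, and 0 of these were above 0. The other 28 had at least 1 base of their own, and 7 of these were above 0. The remaining 21 transcripts with bases of their own were listed at 0. Among them were Hnrnpr NM_001277121 with 18935 such bases and Hnrnpab NM_010448 with 1020, so bases of its own did not by themselves bring a value. Among the members the higher levels thus belonged to genes with 1 RefSeq transcript, and what set the zeros was not tested. The annotation used by the authors may differ, and some RefSeq transcripts share a GENCODE match.

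**Figure D1:**
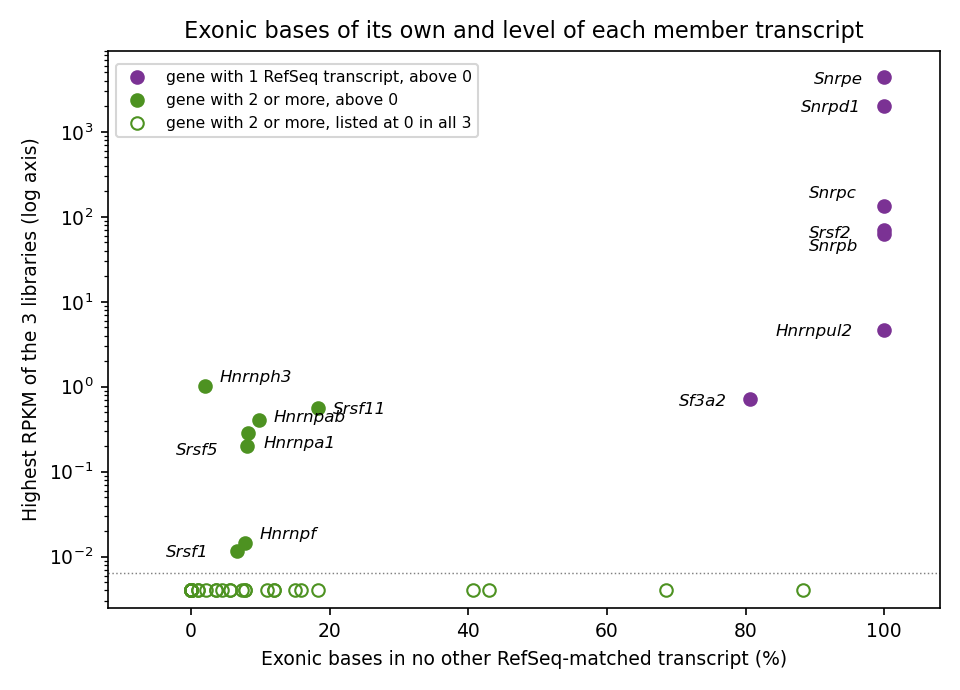
Each point is 1 member transcript, placed by the share of its exonic bases found in no other RefSeq-matched transcript (%, horizontal) and by its highest RPKM of the 3 libraries (vertical, log axis). Open points below the dotted line are listed at 0 in all 3, and filled points of genes with 1 RefSeq transcript sit at the right, from Sf3a2 at 80.6% to 6 transcripts at 100%. An open point, of Hnrnpr at 88.3%, lies in that range too. Hnrnpa1l2-ps2 has no matched GENCODE transcript and is not shown.

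For the hnRNP genes Hnrnpab and Hnrnph3 the transcript with a value has coding bases that the other matched transcripts of the gene lack. They form a whole exon in Hnrnpab and the 3′ end of an exon in Hnrnph3. Hnrnpa1 left aside, stretches were shown if they were wholly coding, a multiple of 3 bases long and part of a mostly shared transcript. They set the transcripts with a value apart by sequence. Of the 2 RefSeq mRNAs of Hnrnpab both were listed, and the other was at 0. Of the 4 of Hnrnph3 1 was listed, so its value cannot be set against those of its other transcripts. They are read from GENCODE transcripts on GRCm38, 5′ to 3′ on the gene's strand, and capitals mark in-frame GGN codons, which encode glycine. The Hnrnpab exon (chr11:51601750-51601890, minus strand) has 141 bases and the Hnrnph3 stretch (chr10:63018041-63018085, minus strand) has 45.
Hnrnpab NM_001048061: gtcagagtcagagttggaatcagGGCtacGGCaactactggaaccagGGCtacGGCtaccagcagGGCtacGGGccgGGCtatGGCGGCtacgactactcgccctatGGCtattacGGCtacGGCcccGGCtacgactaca
Hnrnph3 NM_001079824: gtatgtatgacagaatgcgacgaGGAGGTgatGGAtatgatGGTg
Of the complete codons in each stretch, 13 of 46 were GGN in Hnrnpab and 4 of 14 in Hnrnph3. Leaving either stretch out keeps the reading frame, which follows from the choice of lengths and is not a result.

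Hnrnpa1 encodes one of the most abundant hnRNP proteins of the nucleus. Its transcript NM_001039129 had 0.0166 RPKM in DKO 1, 0.283 in DKO 2 and 0.0419 in WT, about 1, 19 and 4 reads. The ratio to WT was 0.397 in DKO 1 (95% exact binomial interval 0.00806 to 4.01) and 6.76 in DKO 2 (2.25 to 27.3). The other listed Hnrnpa1 transcript, NM_010447, was at 0 in all 3. Hnrnpab, whose protein binds A- and U-rich RNA, had 0.256 RPKM in DKO 1, 0.402 in DKO 2 and 0.355 in WT, about 11, 20 and 25 reads. Both ratios to WT had intervals that span 1, namely 0.310 to 1.47 in DKO 1 and 0.600 to 2.14 in DKO 2. Hnrnph3, of the hnRNP H and F family that binds runs of G, had 0.286 RPKM in DKO 1, 0.472 in DKO 2 and 1.02 in WT, about 19, 36 and 110 reads. Both DKO libraries lay below WT, with ratios of 0.279 in DKO 1 (0.159 to 0.449) and 0.461 in DKO 2 (0.310 to 0.684). All such intervals account for counting error and nothing else, PCR copies of a molecule are counted as separate reads, and read numbers are estimates. The transcripts of Hnrnpa1, Hnrnpab and Hnrnph3 with a value have 8.29%, 9.81% and 2.03% of their exonic bases in no other RefSeq-matched transcript. Their low values can be failed estimates too, so the ratios need not follow the level of the gene. These transcripts were below the level for testing, a mean of 1 RPKM over the libraries.

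Of the 51 transcripts, 6 reached that level, each from another gene: Snrpe, Snrpd1, Snrpc, Snrpb, Srsf2 and Hnrnpul2. None of the 6 passed limma on log2(RPKM + 1) fitted over all 2066 transcripts at that level. Their adjusted p was 0.999 each with Benjamini-Hochberg adjustment, and 0 of 6 had an unadjusted p under 0.05. Over all transcripts 2 passed, which is 0.0968%, and 66 had an unadjusted p under 0.05. A 2-fold rule asked that both DKO libraries differ from WT by 2-fold or more to one side and by less from each other. It took 0 of the 6 and 97 of 2066 (4.7%). The 6 differences ran from −0.65 to 0.43 on the log2 scale, with a median of 0.16 beside −0.01 over all tested transcripts.

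**Figure D2:**
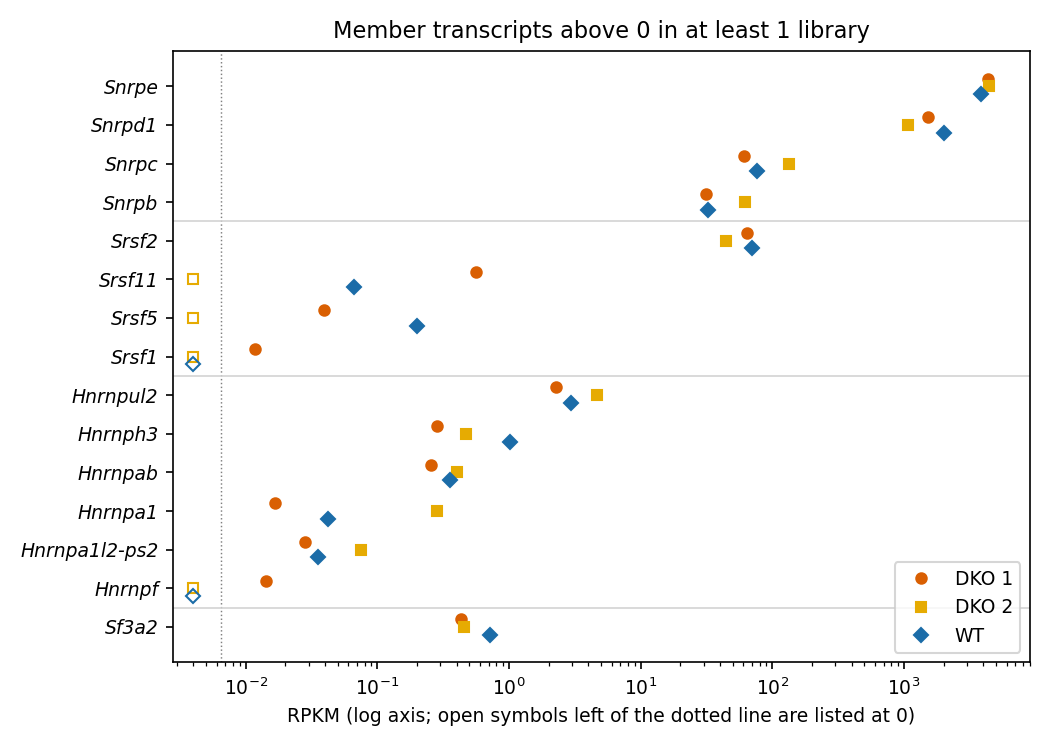
RPKM (horizontal, log axis) of the 15 member transcripts above 0 in any library, 1 symbol per library and no error bars, ordered by family and level. Open symbols left of the dotted line are listed at 0; Snrpe and Snrpd1 are the highest in every library, and most SR and hnRNP transcripts lie below 1.

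The Sm protein gene Snrpe was the highest member (NM_009227, chromosome 1, 133603871 to 133610280 on GRCm38). It had 4336 RPKM in DKO 1, 4387 in DKO 2 and 3808 in WT, and ranked 22 of all 16383 transcripts in every library. The DKO values lay close together and both above WT, at ratios of 1.14 and 1.15, and the log2 difference was 0.20 (SE 0.66, limma adjusted p = 0.999). Of the 6 tested members, Snrpe alone was above WT in both DKO libraries. Rescaled to TPM, with the sum over the listed transcripts alone as the total, its log2 difference was −0.030. Its direction thus depends on the scaling.

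Snrpd1 encodes another protein of the Sm ring (NM_009226, chromosome 18, 10617796 to 10628230). It had 1525 RPKM in DKO 1, 1076 in DKO 2 and 2005 in WT, so both DKO libraries were below WT. The ratio to WT was 0.760 in DKO 1 (0.751 to 0.770) and 0.537 in DKO 2 (0.530 to 0.544), with counting error as the single error covered. The log2 difference was −0.65 (SE 0.73, limma adjusted p = 0.999), the largest of the 6 in size.

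Snrpb encodes the Sm protein B (NM_009225, chromosome 2, 130171636 to 130179382). It had 31.4 RPKM in DKO 1, 62.0 in DKO 2 and 32.6 in WT. DKO 1 was close to WT, with a ratio of 0.965 whose interval of 0.895 to 1.04 spans 1, while DKO 2 was at 1.90 times WT (1.79 to 2.02). The log2 difference over both was 0.43 (SE 0.80, limma adjusted p = 0.999), and without DKO 2 it was −0.050.

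Snrpc encodes the U1 snRNP protein C (NM_011432, chromosome 17, 27840028 to 27851968). It had 61.2 RPKM in DKO 1, 134 in DKO 2 and 76.3 in WT, so the DKO libraries lay on either side of WT. The ratios were 0.801 (0.751 to 0.854) in DKO 1 and 1.76 (1.67 to 1.85) in DKO 2. The log2 difference was 0.25 (SE 0.84, limma adjusted p = 0.999), and without DKO 2 it was −0.31. Thus Snrpb and Snrpc were both highest in DKO 2, the library with the highest erythroid, liver and heart marker sums, whereas Snrpd1 was lowest there.

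Together the Snrp transcripts summed to 5953 RPKM in DKO 1, 5660 in DKO 2 and 5922 in WT, nearly all of it Snrpe and Snrpd1. The 4 tested Snrp genes had a median log2 difference of 0.22, with −0.18 in DKO 1 and 0.51 in DKO 2. Proteins of the Sm ring are present in equal numbers in a finished particle, but the transcripts of their genes were not listed at like levels. Per length, Snrpe stood 138-fold above Snrpb in DKO 1, 70.8-fold in DKO 2 and 117-fold in WT. Snrpd1 stood 48.5-fold above Snrpb in DKO 1, 17.4-fold in DKO 2 and 61.6-fold in WT. Snrpe over Snrpd1 was 2.84 in DKO 1, 4.08 in DKO 2 and 1.90 in WT.

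Near-identical copies make some of these levels uncertain. In the GENCODE transcripts, Snrpc had 7 other genes with at least 90% identity over at least 80% of its coding sequence, Snrpe had 2 and Snrpd1 had 1. Snrpb, Srsf2 and Hnrnpul2 had 0. Nothing used here says how reads that match several places were treated.

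**Figure D3:**
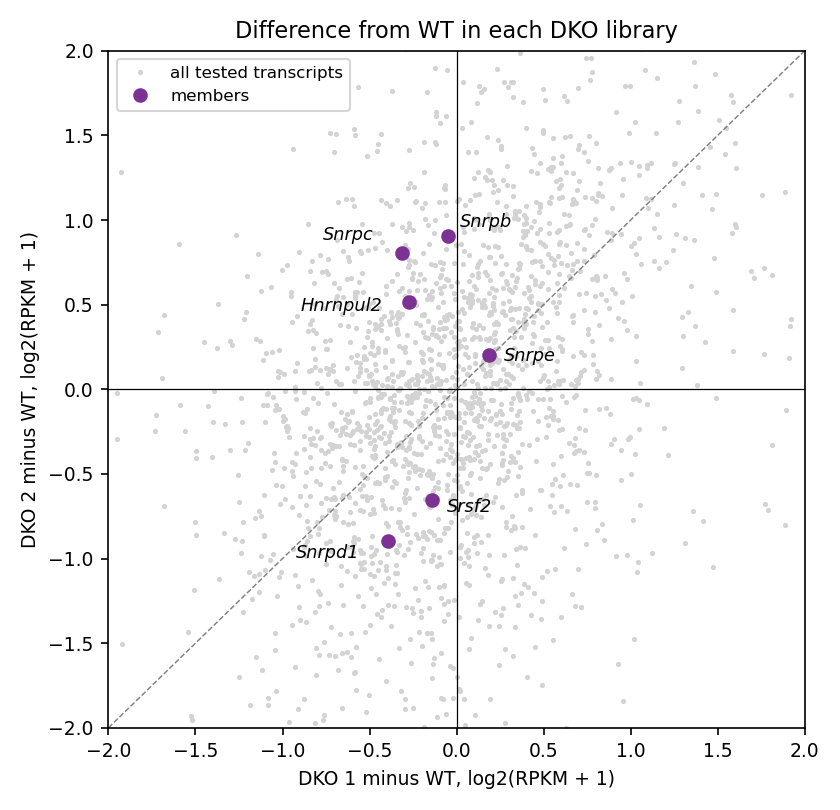
Difference from WT in the deposited RPKM, on the log2(RPKM + 1) scale, in DKO 1 (horizontal) and DKO 2 (vertical) for the 6 tested members (purple) and all tested transcripts (grey), with the dashed line marking equal differences. Snrpb, Snrpc and Hnrnpul2 are above WT in DKO 2 alone, Snrpd1 and Srsf2 below it in both and Snrpe above it in both (not so rescaled to TPM or after quantile normalization); the axes stop at 2, which leaves 137 of 2066 transcripts outside.

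Among the 7 SR genes listed, of 11 in RefSeq, Srsf2 carried nearly all of the listed RPKM (NM_011358, chromosome 11, 116849897 to 116853675). Of the 7, Srsf2 alone has 1 RefSeq transcript. Zeros and low values of the others can be failed estimates, so the SR genes are not ranked by level. Srsf2 encodes a protein that acts in both constitutive and alternative splicing. It had 63.9 RPKM in DKO 1, 44.5 in DKO 2 and 70.5 in WT, and both DKO libraries were below WT. The ratio was 0.906 (0.870 to 0.944) in DKO 1 and 0.631 (0.604 to 0.660) in DKO 2. The log2 difference was −0.40 (SE 0.79, limma adjusted p = 0.999). The span of the gene is overlapped by Mfsd11 and Mettl23 on the other strand, though 100% of its exonic bases lie in no other RefSeq-matched transcript. Nothing used here says whether counting took account of strand.

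The other SR transcripts above 0 were low and differed in their pattern. Srsf11 NM_001093752 had 0.560 RPKM in DKO 1 and 0.0666 in WT, about 53 and 10 reads, and was listed at 0 in DKO 2. Srsf5 NM_001079695 had 0.0394 RPKM in DKO 1 and 0.199 in WT, about 2 and 15 reads, and was listed at 0 in DKO 2. Srsf1 NM_001078167, of the founding SR protein gene, had 0.0117 RPKM in DKO 1, about 1 read, and was listed at 0 in DKO 2 and in WT. No SR transcript other than that of Srsf2 was above 0 in DKO 2. Over the whole table DKO 2 also had the fewest transcripts above 0, with 3726, against 4691 in DKO 1 and 4254 in WT. The zeros in DKO 2 are thus not read as a trait of the SR genes.

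Hnrnpul2, a relative of the scaffold protein gene Hnrnpu, was the single hnRNP member at the level for testing (NM_001081196, chromosome 19, 8819401 to 8834143). It had 2.27 RPKM in DKO 1, 4.64 in DKO 2 and 2.95 in WT, about 357, 812 and 736 reads. The DKO libraries lay on either side of WT, at ratios of 0.770 (0.677 to 0.875) and 1.57 (1.42 to 1.74). The log2 difference was 0.12 (SE 0.67, limma adjusted p = 0.999). It was −0.27 without DKO 2 and −0.073 when rescaled to TPM. A further GENCODE gene overlaps it on the same strand.

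Of the remaining hnRNP transcripts, Hnrnpa1l2-ps2, which its symbol marks as a pseudogene of the Hnrnpa1 family, had 0.0280 RPKM in DKO 1, 0.0753 in DKO 2 and 0.0353 in WT. It had no matched GENCODE transcript, so its read numbers were not estimated and its order of libraries is not read as a pattern. It may share reads with Hnrnpa1. Hnrnpf NM_001166427 had 0.0143 RPKM in DKO 1, about 1 read, and was listed at 0 in DKO 2 and in WT. The 25 listed hnRNP transcripts, of 10 of the 21 Hnrnp genes, summed to 2.87 RPKM in DKO 1, 5.87 in DKO 2 and 4.41 in WT, most of it Hnrnpul2. Zeros and low values among these transcripts can be failed estimates, so the Hnrnp genes are not ranked by level.

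Sf3a2, a subunit of the SF3A complex that joins the U2 snRNP to the branch site, was the member of the Sf3 genes in the table (chromosome 10, 80798735 to 80804922). It had 0.428 RPKM in DKO 1, 0.454 in DKO 2 and 0.712 in WT, about 29, 34 and 77 reads. Both DKO libraries were below WT, with ratios of 0.602 (0.376 to 0.927) and 0.638 (0.407 to 0.953). It had no test at this level. Of the 9 members above 0 but not tested, 3 were below WT in both DKO libraries (Hnrnph3, Sf3a2 and Srsf5) and 0 were above it in both. Over all 3179 transcripts above 0 but below that level, 30.4% were below WT in both and 19.3% above it in both.

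Across the 6 tested members, 1 lay above WT in both DKO libraries (Snrpe), 2 below it in both (Snrpd1 and Srsf2) and 3 on either side (Snrpb, Snrpc and Hnrnpul2), whereas both rescaled to TPM and with quantile normalization 0 of the 6 lay above and 2 below. The shares over all tested transcripts were 32.1% above, 31% below and 36.9% on either side. The 2 DKO libraries differed from each other by a median of 0.65 on the log2 scale over the 6 members and by 0.58 over all tested transcripts. The median size of the difference from WT was 0.32 for the members and 0.44 over all. In both, the median difference between the DKO libraries was thus larger than the median difference of their mean from WT. Snrpb, Snrpc, Srsf2 and Hnrnpul2 each went this way. Snrpe (0.017 between the DKO libraries, 0.20 from WT) and Snrpd1 (−0.50 and −0.65) went the other way. With equal spread in all libraries and no effect, 2 single libraries tend to differ by more than their mean differs from 1 library. Neither order is thus read as a result. With 1 residual degree of freedom and standard errors of 0.66 to 0.84, changes of the size seen in the 6 members were not detectable.

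Other genes of splicing were examined as 3 lists. Of 70 other spliceosome genes, 25 had 39 transcripts in the table, 22 of these at 0 throughout, and 7 were tested. Of these 7, 0 passed limma, 1 lay above WT in both DKO libraries and 4 below it, and their median log2 difference was −0.36. Lsm4, of the Lsm ring that binds U6 RNA, had 249 RPKM in DKO 1, 374 in DKO 2 and 190 in WT (log2 difference 0.68, SE 0.80, limma adjusted p = 0.999). Lsm6, of the same ring, had 1.66, 0.608 and 2.40 RPKM in DKO 1, DKO 2 and WT (log2 difference −0.72). Ddx46, a helicase of the U2 snRNP step, had 3.40, 4.13 and 5.11 RPKM, and Bud31 had 348, 407 and 453 RPKM, in the same order. Lsm4 and Lsm6 thus lay on opposite sides of WT.

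Of 60 splicing regulators, 37 had 98 transcripts in the table, 81 of these at 0 throughout, and 10 were tested. Of these 10, 0 passed limma, 3 were above WT in both DKO libraries and 2 below it, and their median log2 difference was −0.05. Tra2b, an SR-like activator of exons, had 106 RPKM in DKO 1, 94.2 in DKO 2 and 185 in WT (log2 difference −0.88, SE 0.80, limma adjusted p = 0.999). Cirbp, a cold-inducible RNA-binding protein, had 4.33, 4.98 and 8.99 RPKM in the same order (log2 difference −0.82, SE 0.64, limma adjusted p = 0.999). For both genes the DKO libraries lay closer to each other than to WT, and neither reached the 2-fold rule. Elavl1, a protein that stabilizes A- and U-rich RNA, had 9.81, 9.95 and 8.29 RPKM, and Tial1 had 6.43, 7.86 and 5.80 RPKM.

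Of 24 genes of SR kinases and snRNP assembly, 10 had 15 transcripts in the table, 8 of these at 0 throughout, and 5 were tested. Of these 5, 0 passed limma, 0 were above WT in both DKO libraries and 2 below it, and the median log2 difference was −0.11. Clk4, a kinase of SR proteins, had 16.6 RPKM in DKO 1, 4.28 in DKO 2 and 17.7 in WT, so the low value was that of DKO 2. Over both libraries it differed by −0.96 on the log2 scale (SE 0.81, limma adjusted p = 0.999). Strap, of the complex that loads Sm rings, had 33.4, 29.99 and 33.7 RPKM in the same order. Every tested transcript of the 3 lists had a limma adjusted p of 0.999.

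**Figure D4:**
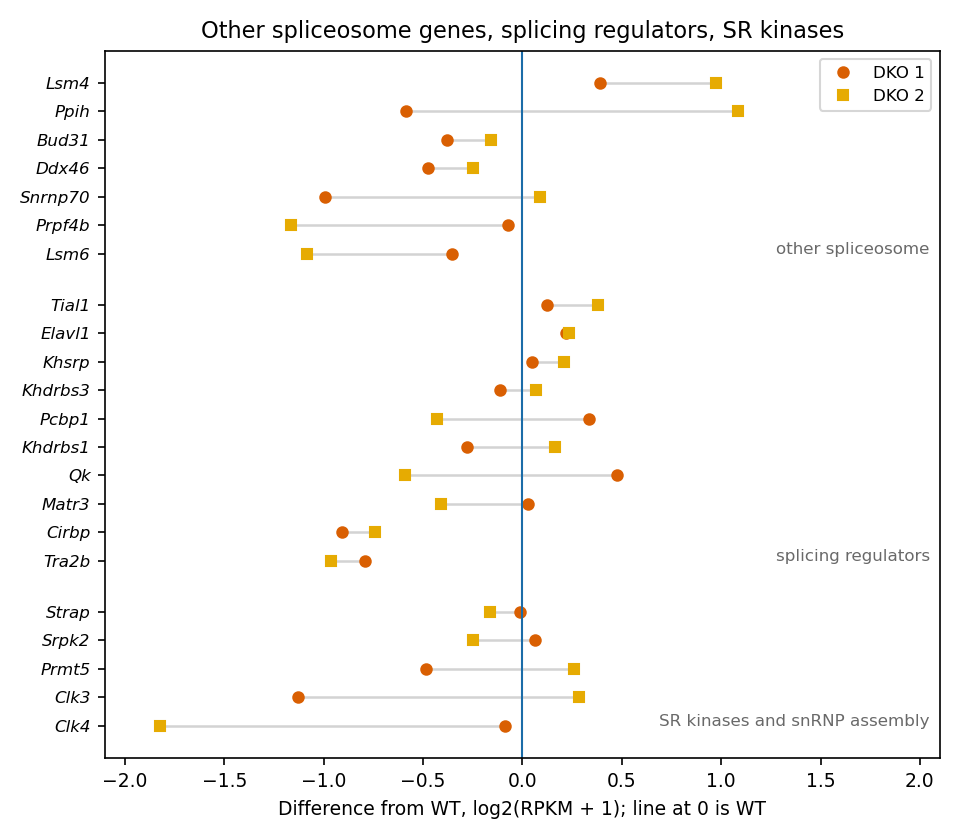
Difference from WT on the log2(RPKM + 1) scale (horizontal) in DKO 1 (circles) and DKO 2 (squares) for the 22 tested transcripts of the 3 related lists, with WT at the vertical line and a grey bar joining the 2 libraries. Tra2b and Cirbp lie left of WT in both libraries with short bars, while Clk4, Clk3 and Ppih have the libraries far apart.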

How the data were processed

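RNA of whole lung was sequenced in 2 DKO libraries and 1 WT library, grouped by their titles, from low-input full-length cDNA, per the labels' protocols. Genome build mm10 and the tools HTSeq, TopHat2, cutadapt and edgeR were used, per the submitters' processing notes; versions, annotation and strand setting are not stated there. RPKM values were deposited by the authors for 16383 RefSeq transcripts, NM_001001144 to NM_015816. The table used here ends at that identifier, and 29 of the 53 RefSeq genes that meet the rule have no row in it.

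The 2066 transcripts whose mean over the libraries reached 1 RPKM were fitted as log2(RPKM + 1), which understates changes of low genes, with limma 3.58.1 in R 4.3.3 (two-sided, trended empirical Bayes, Benjamini-Hochberg over all tested, threshold 0.05). The residual degree of freedom was 1 and the prior 11.2.

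The worth of 1 read was the commonest low product of RPKM and GENCODE transcript length. With it, 43.8% to 45.6% of values of 1 to 100 reads lay within 0.05 of a whole read, where chance gives 10%, so read numbers are approximate. Near copies were sought with blastn 2.17.0. The text names all tested members and, of each related list, up to 4 tested genes with the largest difference shared by both DKO libraries. The other members above 0, Clk3 and Ppih were named after their values were seen. Members and lists were chosen with earlier results of these data known. The effect of 13 alternatives is given in the closing section.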

Additional observations from a re-analysis of the deposited data

How the results depend on the processing

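None of the tested members passed limma under any of 9 alternative fits, with adjusted p from 0.922 to 1, and 0 members passed the 2-fold rule under any setting, including 1.5-fold. Over all transcripts the limma calls, 2 as reported, were 13 with a pseudocount of 0.1, 1 with a pseudocount of 5, 0 without a filter, 10 with a filter at 5 RPKM (1039 tested), 16 with median scaling, 0 with quantile normalization and 0 rescaled to TPM. At the 3 counts of 0, limma gave unadjusted p under 0.05 for 260 of 5245, 45 of 2066 and 54 of 2776 tested, in that order. The 2-fold count, 97 as reported, was 166, 34, 50 and 203 with pseudocounts of 0.1 and 5, the filter at 5 RPKM and TPM, and 275 at 1.5-fold. Without 1 DKO library it ran from 280 to 555, since 1 library then had to pass. Rescaling to TPM brought 2776 transcripts to the level for testing, with a median of −0.22, against −0.01 over 2066 as reported. Held to the same 6, it moved the members' median to −0.05, against 0.16 as reported. It also brought Hnrnph3 (−1.02) and Sf3a2 (−0.53) to the level for testing, and with them the members' median was −0.30, the hnRNP median −0.54, and 0 members lay above WT in both libraries and 4 below. Quantile normalization gave 0 above, and no filter gave 5 below with 15 tested. TPM reversed Hnrnpul2 (−0.073) and Snrpe (−0.030). The cause of these moves was not tested, but the TPM total included Hbb-y, at 18.7% of listed RPKM in DKO 2, 6.37% in DKO 1 and 4.88% in WT. Without DKO 2, Hnrnpul2 (−0.27), Snrpb (−0.050) and Snrpc (−0.31) reversed. Without DKO 1 they were at 0.51, 0.91 and 0.81 in that order. Without 1 DKO library the members' median ran from −0.21 to 0.36, and the medians by family from −0.18 to 0.51 for Snrp, −0.65 to −0.14 for Srsf and −0.27 to 0.51 for Hnrnp. With 1 DKO library left there is no test. No paired analysis was possible because WT has 1 library. The members below the level for testing rest on at most about 110 reads in a library.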
